A study of Mus musculus with 9 samples.

Results

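The 10 genes described here belong to the Bcl2 family, which decides between survival and death of a cell at the mitochondrion. They were taken by name from 37980 genes, and the rule used no measured value, although earlier results of these data were known when it was set. They are the pro-survival genes Mcl1, Bcl2, Bcl2l1 and Bcl2a1b, the effectors Bax and Bak1, and the BH3-only genes Bid, Bad, Bcl2l11 and Pmaip1. All 10 were found in the count matrix, and 9 of them reached the level needed for a test, which asked for a normalised count of at least 10 in at least 4 samples, as did 11987 genes in all. Bcl2a1b stayed below that level.

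Pro-survival members bind and hold back the other family members on the outer mitochondrial membrane. BH3-only members are raised or activated by stress, growth factor loss or DNA damage and occupy the pro-survival proteins, and some of them also activate Bax and Bak1. Active Bax and Bak1 open the membrane and release cytochrome c, which starts the caspases. Blood progenitors are known to depend strongly on Mcl1, whose protein is short-lived and is the preferred partner of Noxa, the product of Pmaip1.

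The RNA came from myeloid progenitors (MPs, Lin-c-kit+Sca1-) of C57BL/6 mouse bone marrow, with 100000 sorted cells in each sample. NA MPs (4 samples) were Tdtomato+ cells from irradiated recipients of multipotent progenitors (MPPs) that carried the Nup98-Hoxa10hd fusion gene (NA, genotype NA LSL/+; Vav-Cre), switched on from the Rosa26 locus by Vav-Cre, a recombinase active throughout blood cells. WT MPs (5 samples) were sorted as CD45.2+ from mice given WT MPPs. The labels place both sorts 3 months after transplantation, while the study's methods give a later month. Those methods describe recipients as CD45.2+ too, while the study's figures follow donor cells as Tdtomato+ or CD45.1+. If WT donors were CD45.1+, cells sorted as CD45.2+ would be helper or host cells and not progeny of WT MPPs. These sources do not settle whether WT MPs were donor, helper or host cells. Every sample came from a transplanted, irradiated recipient, and all comparisons are between fusion carriers sorted by Tdtomato and controls sorted by CD45.2. Nothing in the labels says that each sample was a separate mouse, so p-values measure only the spread between these samples.

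The normalised counts rested on 5557701 to 8106138 reads a sample, recovered from the step between values. Nup98, which gives the fusion its first name, was at 956 ± 81.8 (SD, n = 4) in NA MPs against 599 ± 29.9 (SD, n = 5) in WT MPs, and Hoxa10 at 116 to 155 against 5.59 to 12. Kit, which marks the sorted cells, did not pass the test (log2 fold change -0.04, limma adjusted p = 0.353). Of 8 myeloid progenitor genes 2 were higher and 1 lower, which is 37.5% called beside 34.3% of all tested genes. Their summed normalised counts were 149141 to 163902 in NA MPs and 146506 to 152916 in WT MPs. Some lists of other cell types differed. All 12 pro-B and pre-B genes were higher (summed 1474 to 2613 against 386 to 421), although the lineage gate holds B220. Of these, Pax5 (1.86 to 4.28 in WT MPs), Il7r (4 to 6.52 in WT MPs) and Ebf1 (7.94 to 16 in WT MPs) reached the test only through NA MP samples. Of 13 tested erythroid genes 12 were lower (5038 to 6409 against 9385 to 10242). Among these, Trim10 (9.09 to 18 in NA MPs) reached the test only through WT MP samples. Over all tested genes, 16.9% were called higher and 17.3% lower. The summed level of 7 T cell genes was 45.6 to 66.1 against 11.1 to 18.6, with 3 of them at 0 in all samples and 1, Lck, tested and higher. Lck alone, at 40.8 to 58.7 against 6.84 to 13, made up most of that sum. The untested T cell genes with any count overlapped between the groups. Neutrophil genes (3 of 8 higher, 2 lower) summed to 3636 to 5580 against 3194 to 3703, so the groups overlapped. Mmp8, called lower (4.04 to 16.7 in NA MPs), reached the test only through WT MP samples. Monocyte genes (4 of 7 higher, 1 lower) summed to 13524 to 16079 against 12895 to 13881, which also overlapped. Mast cell and basophil genes (5 of 7 higher, 1 lower) summed to 3507 to 3970 against 2607 to 2871. Cma1, called higher (4.66 to 12.2 in WT MPs), reached the test only through NA MP samples. NA MP replicate 1 stood apart from the other samples on the second principal component, which held 6.12% of the variance.

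Between NA MPs and WT MPs, 3 of the 9 tested family genes rose (Pmaip1, Mcl1 and Bcl2l1), none fell and 6 did not pass the test. The share that passed, 33.3%, lies beside 34.3% of all tested genes called in either direction by limma, and 16.9% called higher. A share this near the background is not a result about the family as a group. The median log2 fold change was 0.03 over the 9 genes and -0.01 over all tested genes. The sizes were unequal: Pmaip1 was 8.17-fold higher, while Mcl1 was 1.38-fold and Bcl2l1 1.25-fold higher. Rises of at least 2-fold were called for 2.56% of tested genes. In these bulk samples, fewer cells of a type and less RNA per cell cannot be told apart.

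**Figure D1:**
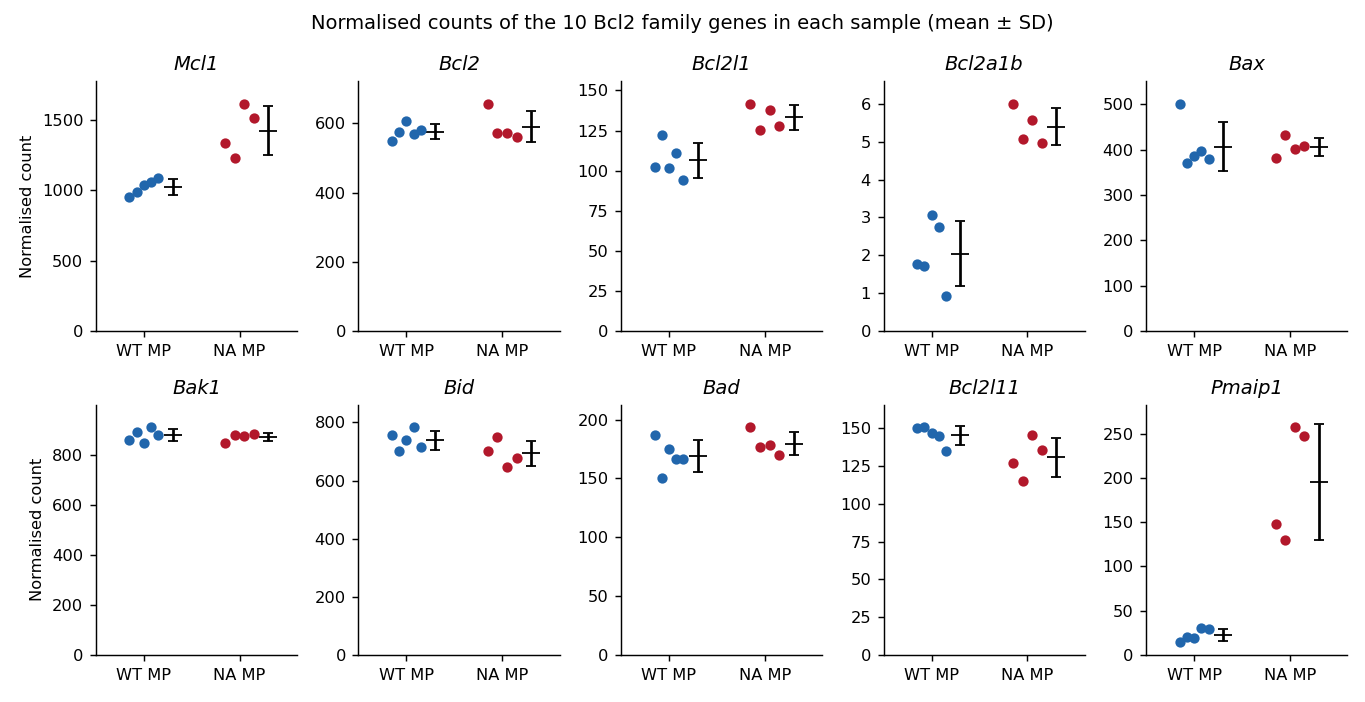
Normalised count (vertical axes, each from 0) of the 10 family genes in 5 WT MP samples (blue) and 4 NA MP samples (red). Points are samples in replicate order from left to right, and bars are the mean ± SD. The groups do not overlap for 3 of the 9 tested genes, Mcl1, Bcl2l1 and Pmaip1, beside 26.3% of all tested genes. They do not overlap for Bcl2a1b either, which had 1 to 6 reads a sample and was below the level needed for a test.

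Among the pro-survival genes, Mcl1 (ENSMUSG00000038612, chr3:95658788-95663176 of mm10, plus strand) had the highest counts and rose. Its normalised counts were 1336, 1226, 1613 and 1514 in NA MP replicates 1 to 4 and 951, 987, 1034, 1058 and 1085 in WT MP replicates 1 to 5. All 4 NA MP values lay above all 5 WT MP values, and groups without overlap, in either direction, were found for 26.3% of tested genes. The means were 1423 ± 173.9 (SD, n = 4) and 1023 ± 53.9 (SD, n = 5), and the log2 fold change was 0.47 with a standard error of 0.082 (95% confidence interval 0.28 to 0.66, limma adjusted p = 0.00251). The SD among NA MPs was above that among WT MPs, with replicates 3 and 4 highest.

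The bases just before the starts of 3 family genes are shown, for Mcl1, which rose, for Bax, which did not pass the test, and for Bcl2a1b. Of the 9 genes searched, only Bcl2a1b had a window with a match to the loose AP-1 pattern used (TGANTCA). Each stretch shown runs 5′ to 3′ over the 250 bases upstream of the RefSeq start on GRCm38.p6. Motif matches on either strand are in capitals. The Mcl1 window (chr3:95658471-95658720, plus strand) held 1 GC box, at 20 to 15 bases before the start. The Bax window (chr7:45466899-45467148, minus strand) held GC boxes at 118 to 113 and 35 to 30 bases before the start and a p53 decamer at 201 to 192. The Bcl2a1b window (chr9:89199023-89199272, plus strand) held TGAATCA, a match to the loose AP-1 pattern, at 164 to 158 bases before the start. It also held a GC box at 83 to 78.
Mcl1: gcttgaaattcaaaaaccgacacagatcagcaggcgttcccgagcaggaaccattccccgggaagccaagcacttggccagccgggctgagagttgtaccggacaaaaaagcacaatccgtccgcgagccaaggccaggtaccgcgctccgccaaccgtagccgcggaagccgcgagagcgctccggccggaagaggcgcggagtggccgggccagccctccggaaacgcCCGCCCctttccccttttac
Bax: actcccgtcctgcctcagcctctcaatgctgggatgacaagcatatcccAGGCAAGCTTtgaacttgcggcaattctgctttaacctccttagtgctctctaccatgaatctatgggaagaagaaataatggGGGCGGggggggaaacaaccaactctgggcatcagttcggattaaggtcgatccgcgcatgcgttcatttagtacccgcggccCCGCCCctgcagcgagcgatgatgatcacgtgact
Bcl2a1b: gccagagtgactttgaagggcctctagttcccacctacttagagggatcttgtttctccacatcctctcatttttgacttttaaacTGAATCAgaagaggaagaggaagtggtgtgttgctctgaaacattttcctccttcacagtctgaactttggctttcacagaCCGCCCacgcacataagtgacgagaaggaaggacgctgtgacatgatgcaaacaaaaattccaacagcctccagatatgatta

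The motifs searched, on both strands, were the GC box (GGGCGG), a loose AP-1 pattern (TGANTCA, any base at the centre) and the CRE (TGACGTCA). The others were an ETS site (CCGGAAGT), the CArG box bound by serum response factor, and the p53 decamer. Windows matched 9 of the 10 genes. Of 32851 RefSeq windows of this length, 32.7% held a GC box, 6.75% a match to the loose AP-1 pattern and 1.55% a CRE. The ETS site was in 2.88%, a CArG box in 1.47% and a p53 decamer in 7.13%. Among the 9 genes, Bcl2 held 7 GC boxes, Bcl2l11 5 over its 2 windows, Bid 3 and Bad 3 over its 2 windows, while Bak1 and the 3 windows of Bcl2l1 held no match to any motif. A match is a stretch of letters, not a measured binding site.

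Bcl2l1 (ENSMUSG00000007659, chr2:152780668-152831728, minus strand), which encodes Bcl-xL, rose by less. Its normalised counts were 142, 125, 138 and 128 in NA MPs and 103, 122, 102, 111 and 94.1 in WT MPs. The groups did not overlap, although WT MP replicate 2 came within a few counts of the lowest NA MP sample. The log2 fold change was 0.33 with a standard error of 0.092 (95% confidence interval 0.14 to 0.51, limma adjusted p = 0.00482). When GC content and length were corrected for and the replicate number was taken as a block, it was 0.20 and no longer passed (limma adjusted p = 0.129), and with the GC and length correction alone it was 0.24 and passed (limma adjusted p = 0.0376).

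Bcl2 (ENSMUSG00000057329, chr1:106538178-106714274, minus strand), the founding pro-survival gene, did not pass the test. It stood at 657, 572, 571 and 561 normalised counts in NA MPs and at 550.4, 574, 608, 570.3 and 579.6 in WT MPs. Its groups overlapped, with NA MP replicate 1 above all others, and the antisense gene D630008O14Rik lies over part of its exons. The log2 fold change was 0.03, with a 95% confidence interval of -0.06 to 0.13 (limma adjusted p = 0.651).

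Bcl2a1b (ENSMUSG00000089929, chr9:89199209-89207827, plus strand), a copy of the gene for the inducible pro-survival protein A1, was near the limit of detection. It had 6.00, 5.06, 5.57 and 4.96 normalised counts in NA MPs and 1.78, 1.71, 3.06, 2.76 and 0.932 in WT MPs. All NA MP values were above all WT MP values, and they stood for 5 to 6 reads in each NA MP library and 1 to 3 in each WT MP library. Pooled reads gave a ratio of 2.5 with a 95% interval of 1.15 to 5.74 that covers counting error only, and the exact two-sided permutation test gave p = 0.0159, the smallest that 4 against 5 samples allow. Without the filter on low values its log2 fold change was 1.11 (limma adjusted p = 0.0432). A normalised count equal to 3 reads, the floor of detection, was 2.48 to 3.60 depending on the library. The copy Bcl2a1c was at 0 in all samples, and no row of the count matrix was matched by name to Bcl2a1a or Bcl2a1d. Since these copies are near-identical and Gm29094 overlaps Bcl2a1b on the same strand, the value is uncertain.

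The effectors Bax and Bak1, which form the pore in the outer mitochondrial membrane, did not pass the test. Bak1 (ENSMUSG00000057789, chr17:27019810-27029009, minus strand) varied little between samples, at 845, 879, 876 and 883 normalised counts in NA MPs and 859, 891, 848, 909 and 879 in WT MPs. The log2 fold change of Bak1 was -0.01 with a 95% confidence interval of -0.09 to 0.07 (limma adjusted p = 0.868). Bax (ENSMUSG00000003873, chr7:45461697-45466898, minus strand) had 382, 432, 402 and 407 normalised counts in NA MPs and 501, 370.5, 386, 396 and 379 in WT MPs. The highest Bax value was in WT MP replicate 1, and the other 8 samples lay together. Its log2 fold change was 0.00 with a 95% confidence interval of -0.14 to 0.15 (limma adjusted p = 0.972). After the GC and length correction both effectors passed as lower in NA MPs, Bax at -0.16 (limma adjusted p = 0.0276) and Bak1 at -0.12 (limma adjusted p = 0.0076). Bax shares exons with the same-strand gene Gm45808 and Bak1 with Ggnbp1 on the opposite strand, so reads of these genes may not be told apart.

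The BH3-only gene Pmaip1 (ENSMUSG00000024521), which encodes Noxa, had the largest change of the 9 tested family genes. Its normalised counts were 148, 130.4, 257 and 247 in NA MPs and 15.1, 19.7, 19.4, 30.0 and 29.8 in WT MPs. The lowest NA MP sample was over 4 times the highest WT MP sample, and within NA MPs replicates 3 and 4 stood well above replicates 1 and 2. The means were 196 ± 65.8 (SD, n = 4) and 22.8 ± 6.75 (SD, n = 5), and the log2 fold change was 3.03 with a standard error of 0.28 (95% confidence interval 2.40 to 3.66, limma adjusted p = 2.62e-05). Without NA MP replicates 3 and 4 together, an alternative chosen after seeing the data, the change was 2.60 for Pmaip1, 0.32 for Mcl1 and 0.33 for Bcl2l1, and all 3 still passed.

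The other BH3-only genes did not pass the test. Bcl2l11 (ENSMUSG00000027381, chr2:128126038-128162547, plus strand), which encodes Bim, a potent activator of Bax and Bak1, had 127, 115, 146 and 136 normalised counts in NA MPs and 150.0, 151, 147, 145 and 135 in WT MPs. Its groups overlapped, and its log2 fold change was -0.15 with a 95% confidence interval of -0.33 to 0.02 (limma adjusted p = 0.161). Bid (ENSMUSG00000004446, chr6:120891930-120916853, minus strand), whose protein is cut by caspase-8 and links death receptors to mitochondria, had 701, 748, 646 and 677 in NA MPs and 758, 699.9, 739, 782.5 and 715 in WT MPs. Its groups overlapped too, and the log2 fold change was -0.09 (limma adjusted p = 0.104), while the GC and length correction gave -0.14 (limma adjusted p = 0.00614) and leaving out NA MP replicate 2 gave -0.13 (limma adjusted p = 0.0272). Bid shares exons with Bcl2l13 on the opposite strand. Bad (ENSMUSG00000024959, chr19:6941861-6951899, plus strand), which is silenced by survival kinases, had 193, 177, 178 and 170.3 in NA MPs and 187, 151, 175, 166 and 167 in WT MPs, with a log2 fold change of 0.09 (95% confidence interval -0.07 to 0.24, limma adjusted p = 0.401). Bad shares exons with Gpr137 on the opposite strand.

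**Figure D2:**
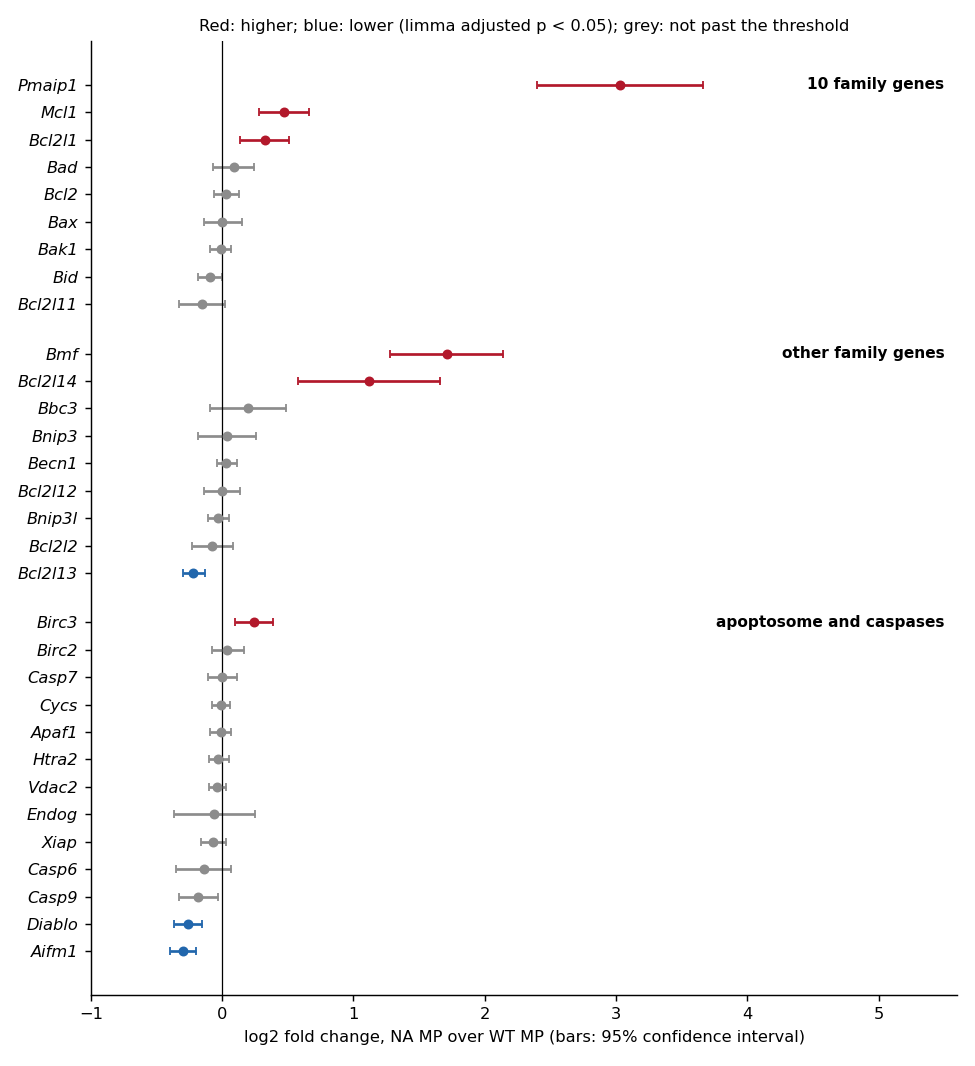
Log2 fold change of NA MPs over WT MPs (horizontal axis) with its 95% confidence interval, for the tested genes among the 10, among other family genes and among apoptosome and caspase genes. Red genes were called higher and blue ones lower by limma at an adjusted p under 0.05. Pmaip1 is at 3.03 and Bmf at 1.71.

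Levels of different genes were compared per kb of exon, as normalised count per kb. The length took in every annotated exon of a gene, which can differ from the length of its transcripts. In WT MPs the order was Bak1 (364 ± 10.1), Mcl1 (299 ± 15.8), Bax (258 ± 33.9), Bid (208 ± 9.29), Bad (66.1 ± 5.19), Bcl2 (63.0 ± 2.28), Bcl2l1 (23.2 ± 2.35), Bcl2l11 (18.1 ± 0.777), Pmaip1 (8.34 ± 2.47) and Bcl2a1b (2.51 ± 1.05), each mean ± SD with n = 5. Mcl1 and Bax overlapped in their sample ranges there, as did Bad and Bcl2. In NA MPs Mcl1 led (416 ± 50.9, SD, n = 4) with a range that overlapped that of Bak1 (362 ± 7.17). Pmaip1 (71.6 ± 24.1) took a place beside Bad (70.2 ± 3.80) and Bcl2 (64.5 ± 4.86), and the neighbours in that order overlapped, while in WT MPs it was below Bcl2l11. Pmaip1 was at 13.3% to 20.4% of the Mcl1 level per length in NA MPs and at 1.99% to 3.55% in WT MPs.

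The 5 pro-survival genes with any level (Mcl1, Bcl2, Bcl2l1, Bcl2l2 and Bcl2a1b) summed per length to 506 to 614 in NA MPs and 409 to 452 in WT MPs. Mcl1 was 70.9% to 76.9% of this sum in NA MPs and 67.6% to 70.2% in WT MPs, and Bcl2 was 10.2% to 13.3% and 14% to 14.9%. Bax plus Bak1 summed to 593 to 639 and 597 to 675, so the ratio of the pro-survival sum to the effector sum was 0.792 to 0.991 in NA MPs and 0.607 to 0.747 in WT MPs. The lowest ratio and the highest effector sum were those of WT MP replicate 1, which had the highest Bax count. WT MP replicates 2 to 5 had ratios of 0.704 to 0.747. These sums are given as descriptions with no test, and the BH3-only genes are left out of them.

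**Figure D3:**
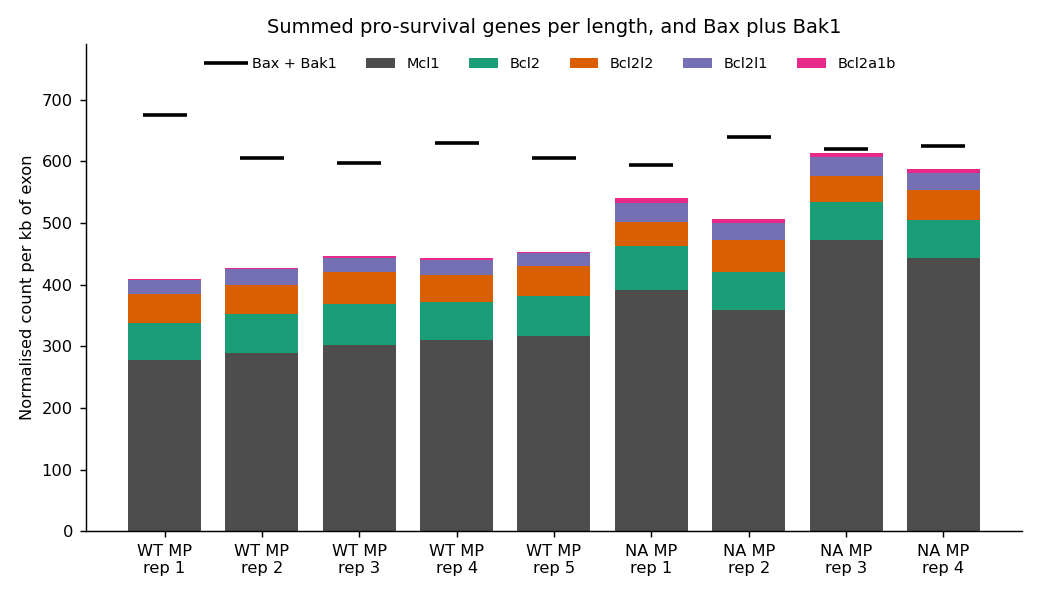
Normalised count per kb of exon for 5 stacked pro-survival genes (bars, from 0) and for Bax plus Bak1 (black dashes) in each of 9 samples. The bars reach 409 to 452 in WT MPs and 506 to 614 in NA MPs, with Mcl1 the tallest block in every sample.

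A list of 16 other Bcl2 family genes held 14 in the count matrix and 9 that were tested. Of these 2 rose, 1 fell and 6 did not pass, with a median log2 fold change of 0.03. That is 33.3% called, near the 34.3% of all tested genes. Bmf, a BH3-only gene whose protein senses loss of cell attachment, had 30.0, 56.6, 51.2 and 37.2 normalised counts in NA MPs and 10.8, 14.5, 14.3, 12 and 10.2 in WT MPs. Its groups did not overlap, and its log2 fold change was 1.71 with a standard error of 0.21 (limma adjusted p = 1.33e-08), 3.28-fold. Bcl2l14 had 22.8, 19.2, 22.3 and 27.3 against 16.2, 12, 12.2, 6.00 and 6.52, a log2 fold change of 1.12 with a standard error of 0.27 (limma adjusted p = 0.00086). WT MP replicates 4 and 5 were below the level of 10, so Bcl2l14 reached the test only through NA MP samples. Bcl2l13, a mitochondrial membrane protein, fell by 0.22 on the log2 scale (limma adjusted p = 3.73e-05), from 794 ± 15.9 (SD, n = 5) to 683 ± 27.2 (SD, n = 4), and it shares exons with Bid.

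The 6 that did not pass were Bcl2l2, which encodes the pro-survival protein Bcl-w (log2 fold change -0.08), the p53 target Bbc3, which encodes Puma (0.20), the hypoxia gene Bnip3 (0.04), Bnip3l (-0.03), Bcl2l12 (0.00) and Becn1 (0.03). Bbc3 counts were 44.5 to 54.0 in NA MPs and 37.7 to 47.5 in WT MPs, and the groups overlapped (limma adjusted p = 0.293). Bok was low, at 7.44 to 11.1 normalised counts against 4 to 9.71. Bik was at 0 to 1.11 against 0 to 2.16, and Bcl2l10 and Hrk were at 0 in all samples. Bcl2l2, Bcl2l12, Bcl2l14, Bnip3 and Becn1 share exons with other genes, so their counts are uncertain.

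Downstream of the mitochondrion, 13 genes of the apoptosome, the caspases and their inhibitors were tested, and 1 rose, 2 fell and 10 did not pass, with a median log2 fold change of -0.04. Aifm1, a mitochondrial flavoprotein, fell by 0.30 on the log2 scale (limma adjusted p = 6.81e-06) and Diablo, which encodes an antagonist of the inhibitors of apoptosis, by 0.26 (limma adjusted p = 0.000255), while Birc3, one of those inhibitors, rose by 0.24 (limma adjusted p = 0.00745). Cycs and Apaf1, which form the apoptosome with caspase-9, had log2 fold changes of -0.01 each and did not pass. By comparison, 34.3% of tested genes were called in either direction and 17.3% lower.

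Of 8 death receptor pathway genes, all tested, 2 rose and 1 fell, with a median of 0.02. Casp8, the caspase that cuts Bid, rose by 0.17 on the log2 scale (limma adjusted p = 0.000677) and the adaptor Tradd by 0.22 (limma adjusted p = 0.0161), while the adaptor Fadd fell by 0.23 (limma adjusted p = 0.0101). Of 14 known regulators of the family, all tested, 5 rose, 3 fell and 6 did not pass, with a median of 0.01. The shares called were 37.5% of the death receptor genes and 57.1% of the regulators, beside 34.3% of all tested genes. Foxo1, a transcription factor that can raise Bcl2l11, rose by 0.92 on the log2 scale (limma adjusted p = 1.1e-08). Pim1, a kinase that can silence Bad, rose by 0.73 (limma adjusted p = 1.18e-08) and the stress factor Ddit3 by 0.42 (limma adjusted p = 0.00107). Stat5a, which carries cytokine signals to Bcl2l1, rose by 0.16 (limma adjusted p = 0.00102). Usp9x, which removes ubiquitin from the Mcl1 protein, fell by 0.29 (limma adjusted p = 1.4e-08), and Huwe1, a ligase that adds it, fell by 0.15 (limma adjusted p = 0.000252). Trp53 had a log2 fold change of -0.05 (limma adjusted p = 0.221).

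Immediate early genes, which are raised within minutes of a stimulus, were higher in NA MPs as well. Of 14 such genes 13 were tested and 12 were higher in NA MPs, with a median log2 fold change of 2.34. That is 92.3% called, beside 34.3% of all tested genes called in either direction and 16.9% called higher. Summed normalised counts of the 14 genes were 18921, 12983, 26667 and 28565 in NA MP replicates 1 to 4. In WT MP replicates 1 to 5 they were 2872, 3742, 4494, 6093 and 4776. The NA MP samples with the highest sums, replicates 3 and 4, also had the highest Pmaip1 and Mcl1 counts, and replicate 2 had the lowest of all 3. Between replicates 3 and 4 the order differed: the sum was higher in replicate 4, but Pmaip1 and Mcl1 were higher in replicate 3. WT MP replicate 1 had the lowest sum and the lowest Pmaip1 and Mcl1 counts among WT MPs, while the highest sum, in replicate 4, went with the highest Pmaip1 count but not with the highest Mcl1 count, which was in replicate 5. The part of this list in the changes of Pmaip1 and Mcl1 was not tested.

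Bmf was set beside another list. Summed counts of the 12 pro-B and pre-B genes were 1474, 2601, 2613 and 1967 in NA MP replicates 1 to 4, and Bmf was lowest in replicate 1, next in replicate 4 and then in replicate 3, and highest in replicate 2. In WT MP replicates 1 to 5 that sum was 388, 421, 406.5, 386 and 406.3. Bmf was highest there in replicate 2, which had the highest sum, but lowest in replicate 5, which did not have the lowest. The part of these cells in the level of Bmf was not tested.

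**Figure D4:**
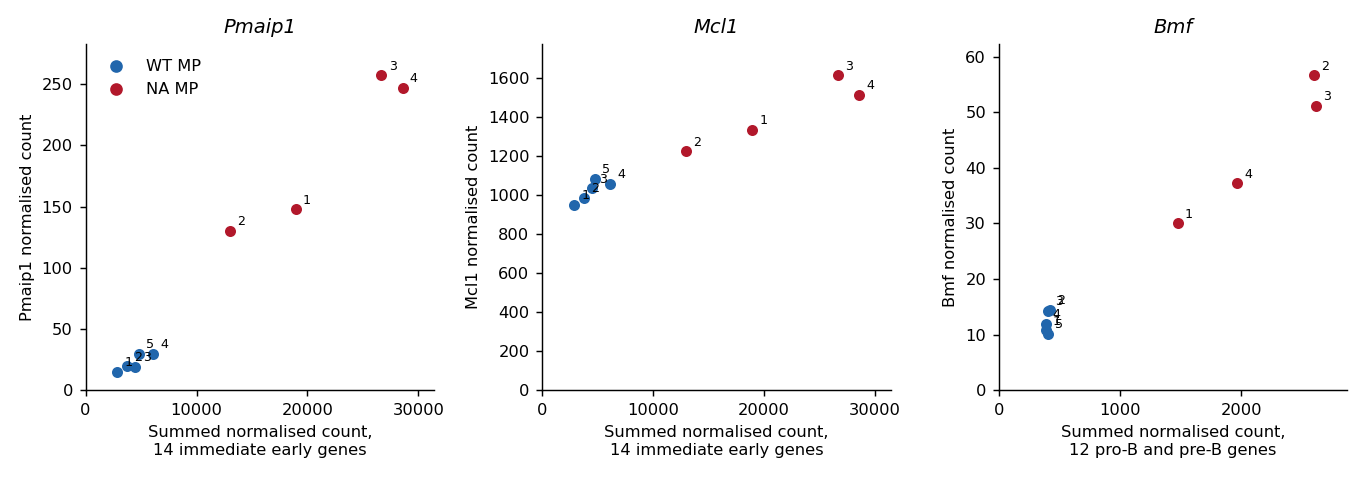
Normalised count of Pmaip1 and Mcl1 against the summed normalised count of 14 immediate early genes, and of Bmf against that of 12 pro-B and pre-B genes. Each point is 1 sample, numbered by replicate, with WT MPs in blue and NA MPs in red. Within NA MPs, replicates 3 and 4 are highest for Pmaip1 and Mcl1, and replicates 2 and 3 for Bmf.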

How the data were processed

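Poly(A) RNA of 9 sorted samples was sequenced from Illumina TruSeq libraries, a kit that does not mark strand unless its stranded form is used. Per the submitters' processing notes, bcl2fastq, RSEM, DESeq2 and mm10 were used, and the annotation and the strand setting of the counting are not given in the sources used here. The authors deposited a matrix described as raw counts, but its values are a signal: RSEM estimated counts divided by 1 size factor a sample. The most frequent value above 0 gives what 1 read is worth (0.827 to 1.20), and 97.4% to 97.7% of values above 0 were then whole reads within a tolerance of 0.01 reads. Deposited totals were 6602851 to 6734284, and the recovered depth was 5557701 to 8106138 reads. They are called normalised counts here. A count model planned for unscaled counts was therefore replaced by a linear model on log2 values.

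Names matched 32916 of 37980 identifiers. In R 4.3.3, limma 3.58.1 (lmFit, eBayes with trend and robust options) was run on log2(normalised count + 1), NA MPs against WT MPs, for 11987 genes with a value of at least 10 in at least 4 samples, and adjusted p-values (Benjamini-Hochberg) under 0.05 were called. Fold changes are on that scale and understate the change of low genes. For a single value, the exact permutation test over the 126 splits was used, two-sided (scipy 1.17.1). The fit was tested on simulated data with 200 changed genes. Exon lengths, coordinates and overlaps came from GENCODE M21 (GRCm38, the assembly of mm10), and promoter windows from RefSeq. No pair of same-group samples agreed within sampling noise.

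The genes named were all 10 members, all other family genes and up to 6 changed genes of each other list. Cycs, Apaf1 and Trp53, which did not pass, and Kit, Nup98, Hoxa10 and Lck, given as checks of the samples, were named outside this rule after their values were seen. One gene of these lists is not reported here. The members and lists were chosen with earlier results of these data known. Alternatives were other scalings, filters, pseudocounts (0.5 and 5), rounded values, voom weights, a threshold of 0.01 and a replicate block. Others were a correction for GC content and length, leaving out each sample, and summing the Bcl2a1 copies.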

Additional observations from a re-analysis of the deposited data

Results flagged for a closer look

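Among 42 groups of 4 or 5 samples (the family genes with a value, in each condition), 2 held a sample whose gap to its neighbour was large against the range of the group, where 2.1 would be flagged by chance. Bcl2 was at 657 normalised counts in NA MP replicate 1, with the other NA MP samples at 561 to 572. Without that sample the log2 fold change of Bcl2 was -0.02 and again did not pass the test (limma adjusted p = 0.792). Bax was at 501 normalised counts in WT MP replicate 1, with the other WT MP samples at 370.5 to 396. Without that sample the log2 fold change of Bax was 0.08, the highest among the fits that each left out 1 sample, and did not pass.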

How the results depend on the processing

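Over 18 family genes, 431 values from alternative settings were compared with the main fit. These include the threshold of 0.01, which reused the main fit, and the summed Bcl2a1 copies, which added only Bcl2a1c, at 0, and changed no value. Neither could turn a direction. Of the 431, 401 kept the direction and the side of the threshold. Another 24 turned the direction, 5 gained a call in the same direction (Bak1 and Bid) and 1 lost it. Among those that turned, Bax gained a call under both fits with the GC and length correction. Mcl1 (0.32 to 0.54), Pmaip1 (2.60 to 3.20), Bmf (1.46 to 1.87), Bcl2l13 (-0.27 to -0.19) and Bcl2l14 (0.88 to 1.28) passed under every alternative run, although Bcl2l14 was not tested where at least 10 was asked of every sample. The GC and length correction raised the number of changed members from 3 to 6 (Bax, Bak1 and Bid lower), and with the replicate block to 5, as Bcl2l1 was lost, and the cause was not tested. With no filter on low values it was 4, as Bcl2a1b was tested and called higher. That correction, which had GC content and length for 11644 of 11987 tested genes, also lowered the share of higher calls over all genes from 49.4% to 38.4%. It turned Bax to -0.16, Bad to -0.02 and Bcl2l12 to -0.11, and with the block Bax to -0.18, Bad to -0.021 and Bcl2l12 to -0.11. Scaling by library size gave -0.011 for Bax and -0.013 for Bcl2l12, and voom weights gave -0.014 for Bcl2l12. Leaving out 1 sample gave -0.02 to 0.055 for Bcl2, -0.027 to 0.081 for Bax, -0.022 to 0.0042 for Bak1, -0.096 to 0.11 for Bnip3 and -0.045 to 0.042 for Bcl2l12, none of them past the threshold. That of Bid was -0.13 to -0.06, past the threshold only without NA MP replicate 2.

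Replicate numbers 1 to 4 occur in both groups, but samples with the same number deviated together with correlations of only -0.02 to 0.057, and only NA MP replicate 4 correlated best with its own number, so the numbers were not taken as pairs. The replicate block gave 3 changed members and 3 changed other family genes, moved the calls over all genes from 4107 to 3693, and put Bax at -0.019. At a threshold of 0.01, 2857 genes passed. Count models (DESeq2) and TMM scaling were not run, although reads could be recovered and were used for the voom weights. Depth limits Bcl2a1b, Bok and Bik, whose libraries held at most 11 reads each.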
